A study of Homo sapiens with 6 samples.

Results

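The genes described here are the numbered zinc finger (ZNF) genes expressed in Hep3B cells, a human hepatocellular carcinoma line. They are the genes whose symbol is ZNF followed only by digits, once a running number that the table adds to repeated symbols is removed, and whose mean over all 6 libraries was at least 2 FPKM (reads scaled to gene length and library depth). Of 483 such symbols in a table of 57773 genes, 268 met this level, 204 lay above 0 and below 2 FPKM, and 11 were listed at 0. The members were chosen by this measured level, so it is given as a description. The rule compares no groups, but it was set with earlier results of these data known. Total RNA was sequenced from Hep3B cells transfected with siRNA against SMARCA4 (si-SMARCA4, 3 libraries) and from Hep3B cells transfected with control siRNA (si-Cont, 3 libraries). Both group means were at least 2 FPKM in 251 of the 268 members, and the rest met the level through 1 group only. The SMARCA4 protein (BRG1) is the ATPase motor of the SWI/SNF complexes, which remodel chromatin. Each group holds 1 cell line, and neither the siRNA sequences nor the time after transfection are given in the sources used here.

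Most ZNF genes encode DNA-binding proteins with a row of C2H2 fingers, each of which folds around a zinc ion and can read a few bases. Many also carry a KRAB domain, which recruits the scaffold protein TRIM28 (KAP1) and, through it, the histone methyltransferase SETDB1 and HP1 proteins, so that the bound chromatin is silenced. These KRAB genes multiplied by tandem duplication, lie in clusters that are most numerous on chromosome 19, and are best known for silencing transposable elements. A SCAN domain lets such proteins pair with one another. Other numbered ZNF genes share little beyond the name and include activators, splicing factors and ribosome assembly factors.

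The depleted gene gives the check of the labels. SMARCA4 had 3.798, 3.782 and 4.012 FPKM in si-SMARCA4 libraries, against 15.7, 19.5 and 16.6 FPKM in si-Cont libraries. Its fold change was -1.91 on the log2(FPKM + 1) scale (SE 0.07, limma adjusted p = 1.63e-08, exact permutation p = 0.1, the smallest that 3 against 3 libraries allow). All fold changes below are on this log2(FPKM + 1) scale, which understates the change of genes at low FPKM. "Higher" and "lower" calls mean a limma adjusted p below 0.05 among the 11123 genes with a mean of at least 1 FPKM. The labels do not say whether replicates were separate cultures, and each p-value here speaks only for the scatter among the libraries sequenced. All 10 hepatocyte and hepatoma markers examined were above 1 FPKM. Their summed level was 2654 to 2807 FPKM in si-SMARCA4 and 3566 to 4007 FPKM in si-Cont, where ALB weighed most (means 1425 and 2269 FPKM). The markers did not move together. TTR (means 18.8 in si-SMARCA4 and 12.2 FPKM in si-Cont), SERPINA1 (321 and 256) and FGB (10.7 and 8.68) had higher means in si-SMARCA4. ALB, AFP, APOA1, APOB, HNF4A, TF and AMBP had lower ones, TF by little (163 and 169). None of the 18 markers of blood, endothelium, fibroblasts, testis or pluripotent cells reached 1 FPKM in any library. Reads over genes numbered 19084308 to 22719014 per library, and si-Cont replicate 2 stood apart from the other si-Cont libraries on the second principal component.

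In si-SMARCA4 cells the fold changes of the ZNF family were spread around 0, with many small changes in both directions. Of the 268 members, 82 were higher (30.6%), 64 were lower (23.9%) and 122 were not called. Of all genes tested, 56% were called, 22.4% higher and 33.6% lower. The members were therefore called about as often as genes in general. In this fit, which was not rescaled, the balance between directions was the other way round. The median log2 fold change was 0.03 over the members (quartiles -0.13 and 0.16), against -0.04 over all genes tested. Without si-Cont replicate 2 the member median was 0.0058, with 78 higher and 69 lower. The split depends on scaling: with median-ratio scaling 102 members were higher and 50 lower, and 3253 and 3324 of all genes. Under the other scalings, 96 to 105 members were higher and 48 to 54 lower. All genes then also had more higher than lower calls: 3346 and 3278 under quantile, 3425 and 3137 under upper-quartile scaling, 3468 and 3191 with voom. The opposite balance of all genes was thus not kept under these settings.

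On the log2(FPKM + 1) scale the changes were small. A fold change below 1.25 on this scale was seen in 223 members, while 21 were higher and 24 lower by at least 1.25-fold. Only 7 called members changed by at least 1.5-fold on this scale, and only ZNF664 by more than 2-fold. In plain FPKM more genes pass these limits. ZNF629 was at 49.7% of its si-Cont mean, and ZNF93 (61.5%), ZNF714 (63.8%) and ZNF615 (167%) lie past 1.5-fold without being among the 7. The libraries of the 2 groups did not overlap for 166 members (61.9%), against 62.3% of all genes tested.

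**Figure D1:**
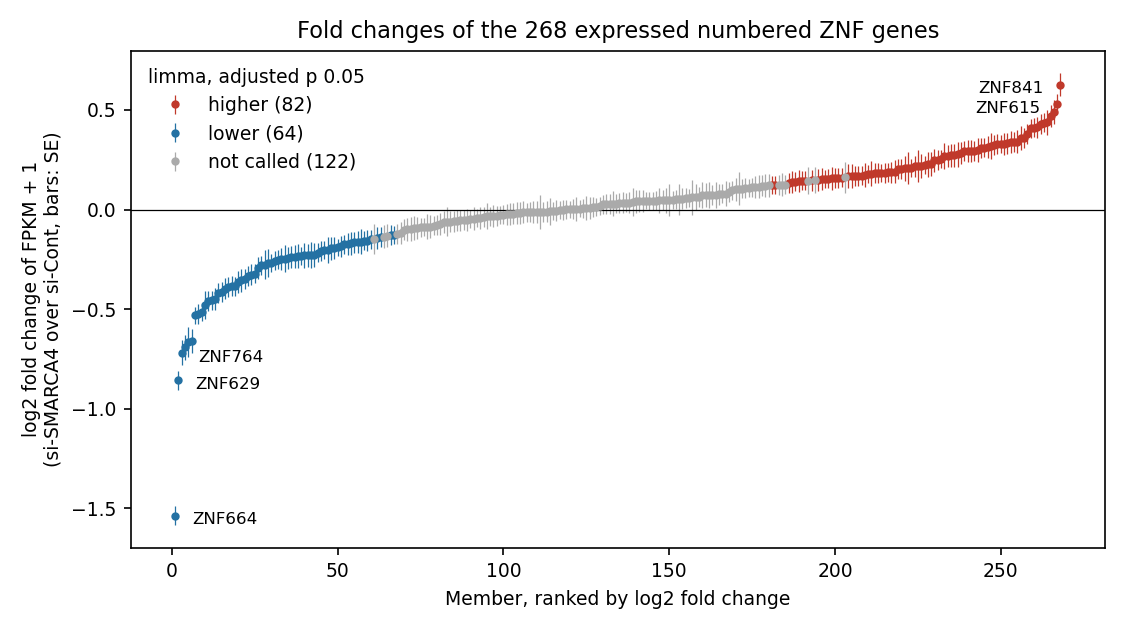
Log2 fold change of FPKM + 1 (si-SMARCA4 over si-Cont, vertical axis) of the 268 members ranked from lowest to highest; points are limma estimates and bars their SE. The 82 higher members (red) reach 0.63 at ZNF841, and the 64 lower members (blue) reach -1.54 at ZNF664, which stands alone.

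Expression level matters for this reading, since ZNF genes are expressed at low levels: the members had a median of 3.98 FPKM and the other genes of at least 2 FPKM a median of 7.22 FPKM. Of the 9112 other genes at 2 FPKM or more, 57.6% were called, 22.4% higher and 35.2% lower, and the groups did not overlap for 63.6%. Among members at 2 to 4 FPKM, 37 of 137 were higher and 23 lower (27.0% and 16.8%), whereas of 2237 other genes at that level 23.5% were higher and 31.0% lower. At 4 to 8 FPKM, 37 of 99 members were higher and 32 lower, with 24.3% and 33.0% of 2720 other genes. At 8 to 16 FPKM the 24 members gave 5 higher and 7 lower (20.8% and 29.2%), with 24.3% and 36.2% of 2166 other genes. At 16 FPKM or more the 8 members gave 3 higher and 2 lower, with 16.6% and 42.0% of 1989 other genes. Higher calls were thus more frequent than lower ones among members in every bin but that of 8 to 16 FPKM.

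Set against genes of like level, the member median stood 0.06 higher on the log2 scale. Library by library, the median deviation of the members minus that of genes of like level was 0.022, 0.048 and 0.018 in si-SMARCA4, against -0.032, -0.019 and -0.035 in si-Cont. The 3 libraries of each group lay on opposite sides of 0. The summed FPKM of the members was 1406, 1413 and 1398 in si-SMARCA4 and 1424, 1375 and 1436 in si-Cont, where the groups overlap. As a share of reads over genes they took 1.11%, 1.14% and 1.11% in si-SMARCA4, against 1.05%, 1.07% and 1.04% in si-Cont. Reads over genes were in turn 62.8% to 64.3% of the FPKM denominator in si-SMARCA4 and 65.5% to 69.5% in si-Cont, and their part in the difference was not tested. In bulk RNA, fewer transcripts per cell and fewer cells that transcribe a gene cannot be told apart.

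**Figure D2:**
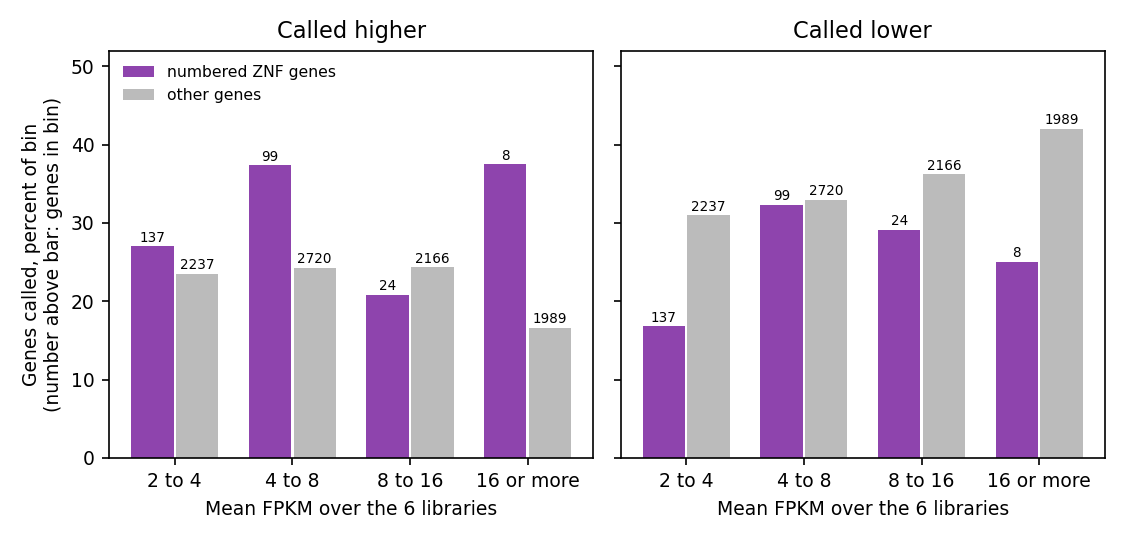
Percent of genes called higher (left panel) and lower (right panel) in si-SMARCA4 by limma, for numbered ZNF genes (purple) and other genes (grey) in bins of mean FPKM; the number above each bar is the genes in the bin. At 2 to 4 FPKM 16.8% of the members and 31.0% of the other genes were called lower; the bin of 16 FPKM or more holds only 8 members.

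ZNF664, a protein of 9 C2H2 fingers without a KRAB domain, had by far the lowest fold change of the family. It had 8.51, 9.06 and 8.81 FPKM in si-SMARCA4, against 28.0, 27.3 and 27.0 FPKM in si-Cont, or 32.1% of the si-Cont mean. The groups lay far apart and the spread within each was small. The log2 fold change was -1.54 (SE 0.05, limma adjusted p = 5.18e-09, exact permutation p = 0.1), and each library held at least 1708 reads of the gene. ZNF664 shares exons with RFLNA on the same strand and with CCDC92 on the opposite strand in GENCODE, and the strand setting of the counting is not given in the sources used here. Without ZNF664 the count of lower members was 63 and the median 0.03.

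ZNF629 and ZNF764, from the same run of ZNF genes on chromosome 16, came next. ZNF629 had 3.998, 3.974 and 4.236 FPKM in si-SMARCA4 and 7.96, 8.51 and 8.10 FPKM in si-Cont (fold change -0.86 on the log2 scale, SE 0.05, limma adjusted p = 2.04e-07). ZNF764, a KRAB protein, had 5.594, 4.532 and 5.003 FPKM in si-SMARCA4 and 8.69, 9.05 and 9.04 FPKM in si-Cont (fold change -0.72, SE 0.06, limma adjusted p = 4.67e-06). In both genes every si-SMARCA4 library was below every si-Cont library.

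ZNF652, a repressor that works with the corepressor CBFA2T3, had 1.75, 2.18 and 2.04 FPKM in si-SMARCA4 and 3.73, 4.10 and 3.64 FPKM in si-Cont (fold change -0.69). ZNF32 had 5.23, 5.01 and 5.13 FPKM in si-SMARCA4 and 9.32, 7.48 and 9.45 FPKM in si-Cont (-0.67). ZNF426, a KRAB protein of 11 fingers, had 4.45, 4.89 and 4.29 FPKM in si-SMARCA4 and 7.94, 7.14 and 8.20 FPKM in si-Cont (-0.66). All 3 passed the test with groups apart (limma adjusted p = 6.94e-06, 2.76e-05 and 6.94e-06 in that order). The remaining genes among the 10 lowest were ZNF714 (-0.53), ZNF358 (-0.52), ZNF93 (-0.52) and ZNF747_2 (-0.48), where the suffix is the running number of the table.

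The highest rises were smaller than the deepest falls. ZNF841, a KRAB protein of 20 fingers, had 9.28, 9.97 and 8.51 FPKM in si-SMARCA4 and 5.62, 5.71 and 5.55 FPKM in si-Cont (fold change 0.63, SE 0.06, limma adjusted p = 5.88e-06). Its near neighbour ZNF615 had 3.23, 3.38 and 3.16 FPKM in si-SMARCA4 and 1.87, 2.04 and 1.94 FPKM in si-Cont (0.53, SE 0.05, limma adjusted p = 7.69e-06). Every si-SMARCA4 library was above every si-Cont library in both genes. ZNF264 had 9.56, 8.80 and 9.06 FPKM in si-SMARCA4 and 5.80, 6.79 and 6.08 FPKM in si-Cont (0.49, limma adjusted p = 4.68e-05).

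The other genes among the 10 highest were ZNF559 (0.47), ZNF805 (0.44), ZNF140 (0.44), ZNF256 (0.43), ZNF337 (0.41), ZNF12 (0.41) and ZNF292 (0.41). The KRAB repressor ZNF12 was the most abundant of them, at 19.1, 18.6 and 18.2 FPKM in si-SMARCA4 and 13.95, 13.48 and 13.76 FPKM in si-Cont. ZNF292, a large finger protein known as a tumour suppressor, had 11.95, 12.39 and 11.52 FPKM in si-SMARCA4 and 8.73, 8.97 and 8.58 FPKM in si-Cont. All but ZNF292 of the 10 highest carry a KRAB domain, against 4 of the 10 lowest and 167 of all 268 members; these genes were picked by their fold change. Near-identical copies are common in this family, so reads may be split between paralogs by the authors' counting, which cannot be checked from FPKM. Exons of 134 members also overlap those of another annotated gene, on the same or the opposite strand, ZNF764, ZNF652, ZNF32, ZNF93, ZNF559 and ZNF140 among them.

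**Figure D3:**
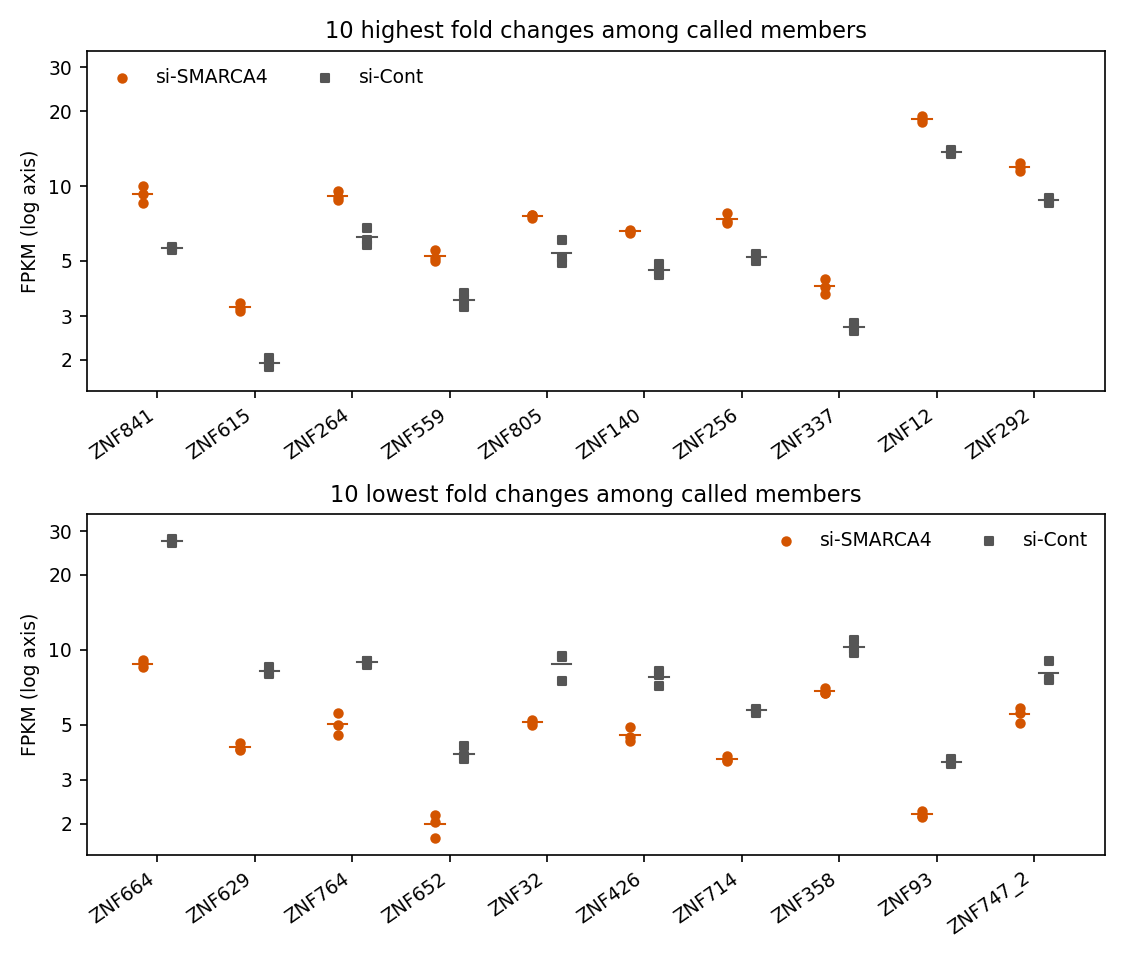
FPKM (log axis) of the 10 called members with the highest (top) and the 10 with the lowest (bottom) fold changes, 3 si-SMARCA4 libraries as orange circles left of 3 si-Cont libraries as grey squares, with a line at each group mean. The groups do not overlap in any of these 20 genes, which the rule for naming them required; ZNF664 shows the widest gap, at about 9 against 27 FPKM.

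The most abundant members changed little apart from ZNF664. ZNF146, which consists almost wholly of fingers, had 38.95, 37.69 and 37.98 FPKM in si-SMARCA4 and 35.8, 32.1 and 35.1 FPKM in si-Cont (fold change 0.15, limma adjusted p = 0.0385). ZNF281, a regulator of stem cell genes and of the epithelial to mesenchymal transition, had 35.4, 35.6 and 33.3 FPKM in si-SMARCA4 and 32.4, 31.0 and 31.5 FPKM in si-Cont (0.13, limma adjusted p = 0.0482). ZNF121 (-0.02) and the ribosome assembly factor ZNF622 (0.00) were not called, and their groups overlapped. The calls of ZNF146 and ZNF281 were lost in 4 and 7 of 15 alternative settings.

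At the lower limit of expression, the 3 members just above 2 FPKM were ZNF100, ZNF621 and ZNF30, with fold changes of -0.25, -0.04 and 0.04. The 3 genes just below it were ZNF212, ZNF713 and ZNF799, with fold changes of -0.07, 0.04 and 0.12. Of the 94 numbered ZNF symbols between 1 and 2 FPKM, 19 were higher and 18 lower, with a median of -0.01. These shares are 20.2% and 19.1%, against 22.4% and 33.6% of all genes tested. The fold changes closest to 0 belonged to ZNF398, ZNF765 and ZNF451.

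A set of 20 members with a described function was read separately. In it 9 were higher, 7 lower and 4 not called, where 22.4% of all genes tested were higher and 33.6% lower. Among regulators of transcription, ZNF143, an activator of small nuclear RNA and many other promoters, had 7.502, 8.277 and 8.047 FPKM in si-SMARCA4 and 6.55, 5.59 and 5.82 FPKM in si-Cont (fold change 0.36, limma adjusted p = 0.000499). ZNF217, an oncogene amplified in breast cancer, had 7.96, 7.38 and 7.43 FPKM in si-SMARCA4 and 10.85, 10.95 and 10.53 FPKM in si-Cont (-0.46, limma adjusted p = 1.89e-05). These 2 genes moved in opposite directions, each with groups apart.

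Among genes with a described role in silencing, ZNF274, which recruits SETDB1 to the 3′ ends of zinc finger genes, had 8.01, 7.96 and 8.41 FPKM in si-SMARCA4 and 6.35, 5.81 and 6.58 FPKM in si-Cont (0.33, limma adjusted p = 0.000332). ZNF644, a partner of the methyltransferases G9a and GLP, had 15.79, 14.96 and 14.86 FPKM in si-SMARCA4 and 12.6, 11.8 and 12.2 FPKM in si-Cont (0.29, limma adjusted p = 0.000447). Both rose with groups apart. ZNF91, which silences SVA elements and has the most fingers of all members (31), had 4.670, 5.019 and 4.998 FPKM in si-SMARCA4 and 6.33, 6.36 and 6.41 FPKM in si-Cont (-0.32, limma adjusted p = 0.000157). ZNF93, which silences LINE-1 elements, had 2.14, 2.25 and 2.16 FPKM in si-SMARCA4 and 3.64, 3.46 and 3.53 FPKM in si-Cont (-0.52, limma adjusted p = 6.22e-06). ZNF445, which protects imprinted regions, had a fold change of -0.24 (limma adjusted p = 0.00351).

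The other called genes of the set had fold changes between -0.24 and 0.18. Higher were ZNF148 (0.18), ZNF687 (0.17), the SCAN and KRAB repressor of lipid genes ZNF202 (0.17), the spindle assembly protein ZNF207 (0.16) and ZNF609 (0.14), besides ZNF281. Of these, ZNF609 lost its call in 6, ZNF202 in 5, ZNF207 in 4, and ZNF148 and ZNF687 in 1 of 15 alternative settings. Lower were ZNF326, which couples transcription to splicing (-0.24), ZNF592 (-0.16) and ZNF410 (-0.14). ZNF410 is known above all as the activator of CHD4, which is given with the KAP1 genes below; its call was lost in 10 of 15 alternative settings and that of ZNF592 in 9. ZNF24, ZNF638, the SUMO ligase ZNF451 and ZNF10, whose KRAB domain is used in CRISPR interference, were not called, at fold changes of -0.06, 0.01, 0.00 and 0.06.

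By protein class, a KRAB domain was found in 167 members, 7 of them with a SCAN domain as well. A SCAN domain without KRAB was found in 8, a BTB domain in 1, 3 or more fingers and none of these domains in 70, fewer than 3 fingers in 17, and no annotated coding sequence in 5. KRAB members were higher in 50 and lower in 34 cases, or 29.9% and 20.4%, against 22.4% and 33.6% of all genes tested. Their median log2 fold change was 0.04. Other scalings moved this median to 0.087 (median-ratio, 66 higher and 31 lower), 0.074 (quantile, 60 and 32) and 0.0998 (upper-quartile, 67 and 30), and voom to 0.126 (67 and 30). In that order, the median of all 11123 genes tested moved as well, from -0.04 to 0.0005, 0.0066, 0.0136 and 0.0154. Of these genes 3253, 3346, 3425 and 3468 were then higher and 3324, 3278, 3137 and 3191 lower. Coding members without KRAB were higher in 30 and lower in 29 of 96, with a median of -0.01, which turned to 0.03 under median-ratio, 0.04 under quantile and 0.05 under upper-quartile scaling, and to 0.05 with voom. The difference between these classes was not tested, and both medians are small beside the quartiles of the family.

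**Figure D4:**
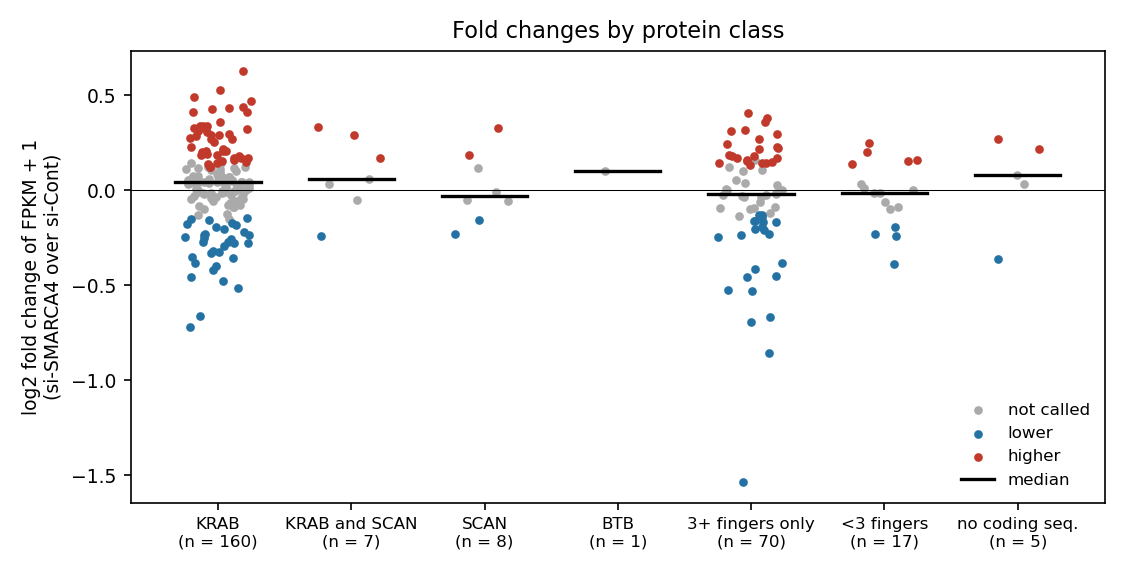
Log2 fold change of FPKM + 1 (si-SMARCA4 over si-Cont, vertical axis) of each member by protein class, coloured by limma call, with a black line at the class median. The 160 KRAB members have a median of 0.04 and the 70 members with 3 or more fingers only a median of -0.02 before rescaling; higher and lower calls occur in both.

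Zinc finger families outside the rule are set beside the 22.4% higher and 35.2% lower of other genes of at least 2 FPKM. Of 27 ZBTB genes at 2 FPKM or more, 10 were higher and 4 lower, with a median of 0.08 (37.0% and 14.8%). Of 23 ZFP, ZSCAN and ZKSCAN genes, 6 were higher and 9 lower, with a median of -0.09 (26.1% and 39.1%). Of 10 KLF and SP genes, 4 were higher and 4 lower.

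The genes through which KRAB proteins act were lower in 19 of 32 cases. In this KAP1 pathway list, all of it tested, 0 were higher, 19 lower and 13 not called by limma, with a median log2 fold change of -0.19. Of all genes tested, 22.4% were higher and 33.6% lower. Several of the lower genes are abundant: CBX1, CBX3, CBX5, CHD4, TRIM28, HDAC1, DNMT1 and MBD3 lie above 16 FPKM. Of other genes at 16 FPKM or more 42.0% were lower, with a median of -0.11, so the share of all genes is not a like-level background for them. At an unadjusted p below 0.05, 0 were higher and 20 lower; voom on the recovered reads called 1 higher and 18 lower, and limma after quantile normalization 2 higher and 18 lower. The corepressor TRIM28 itself had 57.89, 58.31 and 59.98 FPKM in si-SMARCA4 and 67.5, 67.1 and 71.5 FPKM in si-Cont (fold change -0.22, limma adjusted p = 0.00462). SETDB1, the histone H3 lysine 9 methyltransferase, had 6.217, 6.497 and 6.483 FPKM in si-SMARCA4 and 10.4, 9.12 and 10.4 FPKM in si-Cont (-0.57, limma adjusted p = 1.24e-05). The groups did not overlap for either gene, and the call of TRIM28 was lost under quantile normalization (-0.08).

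The HP1 proteins, which bind the mark set by SETDB1, were lower too. CBX1 had 25.7, 25.4 and 26.2 FPKM in si-SMARCA4 and 50.3, 40.9 and 48.1 FPKM in si-Cont (-0.82, limma adjusted p = 5.06e-06), and CBX5 and CBX3 had fold changes of -0.52 and -0.50. The chromatin remodeller CHD4 had 36.4, 35.6 and 36.1 FPKM in si-SMARCA4 and 52.7, 51.5 and 55.2 FPKM in si-Cont (-0.55, limma adjusted p = 8.17e-06). UHRF1, the adaptor of the maintenance DNA methyltransferase, had 9.23, 9.17 and 8.84 FPKM in si-SMARCA4 and 17.7, 15.7 and 17.2 FPKM in si-Cont (-0.83, limma adjusted p = 6.33e-07), and DNMT1, that methyltransferase, a fold change of -0.34. The HUSH complex genes MPHOSPH8 (0.00), FAM208A (-0.03) and PPHLN1 (-0.14) were not called. Many of the listed genes also serve DNA replication and dividing cells, and the part of cell cycle in these values was not tested.

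Position along the chromosomes was examined on GRCh38 from the GENCODE annotation, for 265 members that could be placed, whereas the deposited values were made on hg19. Of the 268 members, 131 (48.9%) lie on chromosome 19, where 40 were higher and 26 lower, with a median of 0.05. Elsewhere or unplaced, 42 were higher and 38 lower of 137, with a median of 0.00. Of all genes tested 22.4% were higher and 33.6% lower, shares to set beside these counts and those of the runs below. Members no more than 500 kb from the next formed 16 runs of at least 4, which hold 150 members, and 9 of these runs held calls in both directions. The runs described next were chosen after their values were seen.

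The run on chromosome 16 (chr16:30378106-31084196, from ZNF48 to ZNF646) had 6 of 9 members lower and 0 higher, with a median of -0.39. Besides ZNF629, ZNF764 and ZNF747_2, the lower genes were ZNF689 (-0.40), ZNF48 (-0.39) and ZNF646 (-0.19). ZNF629, ZNF764, ZNF747_2 and ZNF689 also share a 3′ UTR motif that is described below. ZNF768 had 16.5, 16.3 and 15.9 FPKM in si-SMARCA4 and 17.1, 15.8 and 17.1 FPKM in si-Cont, which overlap (-0.03), and ZNF668_1 (-0.14) and ZNF771 (-0.10) were not called either. Of 13 other genes tested inside this interval, 4 were lower, 1 was higher (SETD1A) and 8 were not called, with a median of -0.08. Over 16 fits, the reported one included, voom among them, 6 or 7 of the 9 members were lower and 0 higher, and at an unadjusted p below 0.05 in the reported fit 7 were lower and 0 higher.

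The run from ZNF175 to ZNF331 on chromosome 19 (chr19:51571298-53580269), in which all 27 members carry KRAB, had 8 members higher, 8 lower and 11 not called. Its first 7 members in order, ZNF175 (0.30), ZNF649 (0.34), ZNF613 (0.27), ZNF615 (0.53), ZNF614 (0.33), ZNF432 (0.36) and ZNF841 (0.63), were all higher, over chr19:51571298-52095765. All 7 stayed higher in each of the 16 fits. ZNF175, ZNF613 and ZNF615 had si-Cont means of 1.80, 1.86 and 1.95 FPKM, and met the level limit only through the si-SMARCA4 libraries. ZNF649 had 4.46, 4.47 and 4.52 FPKM in si-SMARCA4 and 3.38, 3.08 and 3.55 FPKM in si-Cont, and ZNF614 had 4.24, 3.96 and 3.99 FPKM in si-SMARCA4 and 2.95, 3.02 and 3.11 FPKM in si-Cont. ZNF432 and ZNF841 share exon positions on the same strand, so their reads are not independent. Of 2 other genes tested inside this interval, ZNF350, a zinc finger gene below the member level, was higher and 1 was not called.

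The 20 members after ZNF841, a division made after the values were seen, gave 8 lower calls and 1 higher, with a median of -0.05, and 11 were not called. The share of lower calls is near the 33.6% of all genes tested. Lowest were ZNF468 (-0.35) and ZNF813 (-0.35), followed by ZNF611 (-0.22), ZNF525 (-0.19), ZNF28 (-0.18), ZNF845 (-0.17), ZNF480 (-0.16) and ZNF766 (-0.14), and only the last gene, ZNF331 (0.15), was higher. ZNF611 had a si-SMARCA4 mean of 1.88 FPKM and met the level limit only through the si-Cont libraries. ZNF813 had 2.34, 2.24 and 2.11 FPKM in si-SMARCA4 and 3.10, 3.04 and 3.21 FPKM in si-Cont, with groups apart. These calls are less firm than those of the first 7 members: over the 16 fits, 4 to 8 were lower and 0 to 4 higher, and under upper-quartile scaling and voom 6 were lower and 4 higher with medians of 0.01. Of 9 other genes tested inside this interval, 2 were higher, 2 lower and 5 not called. Several of these genes share exon positions (ZNF468 with ZNF28 and ZNF320), so reads may be assigned to either.

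**Figure D5:**
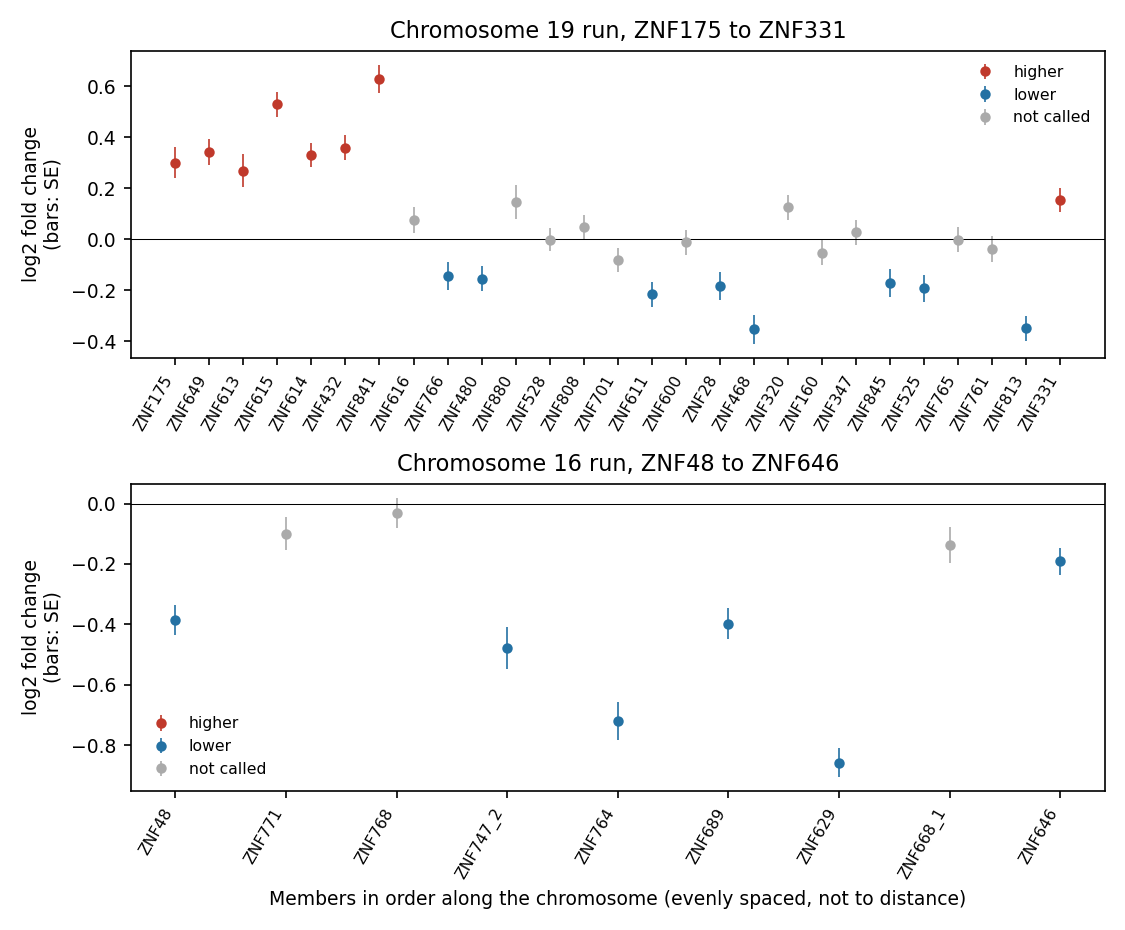
Log2 fold change of FPKM + 1 (si-SMARCA4 over si-Cont, bars: SE) of members in their order along the run on chromosome 19 (top) and on chromosome 16 (bottom), evenly spaced and coloured by limma call. The first 7 genes of the chromosome 19 run lie between 0.27 and 0.63 and the 20 after them between -0.35 and 0.15; no member of the chromosome 16 run was called higher.

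Other runs differed as well. On chromosome 19 (chr19:36214602-36772825) ZNF146, ZNF260, ZNF567 and ZNF850 were all higher. On chromosome 12 (chr12:132918308-133214831) ZNF605, ZNF26, ZNF84 and ZNF140 were higher and ZNF268 lower, of 6 members. The run with the most members (chr19:57191500-58475436, 29 members from ZNF264 to ZNF324) had 10 higher and 4 lower, where 22.4% of all genes tested were higher and 33.6% lower. More higher than lower calls were also held by chr19:8806170-9675086 (3 higher, 1 lower of 9) and chr19:11559374-12633840 (4 and 1 of 9). The same held for chr19:43596392-44500524 (3 and 2 of 15) and chr19:55576770-56626481 (4 and 1 of 7). More lower than higher calls were held by chr19:21082159-22215775 (1 higher, 3 lower of 6) and chr3:44431720-44660791 (0 and 2 of 4). In chr19:19668796-20565809 0 were higher and 2 lower of 7, but the median was 0.04. Each of the remaining runs held calls in both directions or only 1 lower call.

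Sequences in the 3′ UTR were looked at because an earlier analysis of these same fold changes had found the 7-base motifs CTGTCCA and TGTCCAA more often in lower genes, so they are a description here and no support. Counted on the transcript strand, with overlap allowed, in the longest annotated 3′ UTR of at least 50 bases, at least 1 of them lies in 64 of 261 members (24.5%), against 1954 of 8672 other genes of at least 2 FPKM (22.5%). The 10 lowest members include 5 that carry one: ZNF664, ZNF629, ZNF764, ZNF426 and ZNF747_2. Of the 10 highest only ZNF264 does. The sites are given on GRCh38 (GENCODE v29 transcripts), 5′ to 3′ on the transcript strand, with the motif in capitals, to let the lowest members be compared with ZNF264.
ZNF664 (chr12:124015379-124015407, plus strand): gacctacagtaTGTCCAAatcaatttaat
ZNF629 (chr16:30778508-30778536, minus strand): tgagtgttgtgTGTCCAAaacagtgttgt
ZNF629 (chr16:30778841-30778869, minus strand): ccaaaccctctTGTCCAAtcacatgcagg
ZNF764 (chr16:30553907-30553936, minus strand): gacccatgtctCTGTCCAAataggcctttc
ZNF426 (chr19:9527647-9527675, minus strand): cgtttatagatTGTCCAAaagccttaata
ZNF747_2 (chr16:30533005-30533034, minus strand): ggttggagcagCTGTCCAAggcccggcgcc
ZNF264 (chr19:57216008-57216036, plus strand): ttgctgattttCTGTCCAgcatttctgtc
The site of ZNF664 lies 2460 bases after the stop codon in a 3′ UTR of 2509 bases and is present in all 4 of its coding transcripts, whereas the site of ZNF264 is in 1 of 6. ZNF629 holds 2 sites in its 1 coding transcript. ZNF426 holds another site, not printed, besides the one given, which is in 1 of its 5 coding transcripts. ZNF764 and ZNF747_2 hold the 8-base form that joins both motifs. In the chromosome 16 run a motif lies in ZNF629, ZNF764, ZNF747_2 and ZNF689, which have the lowest fold changes of that run. No other member of the run holds one, ZNF48 and ZNF646 included, which were lower. Position and motif thus coincide in part there, and their parts in these values were not tested.

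Across the family the presence of a motif went with only a small shift. The 64 members with a motif had a median fold change of -0.02, with 16 higher and 17 lower. The 197 without one had a median of 0.04, with 64 higher and 46 lower. Among other genes of at least 2 FPKM, 45.8% of those with a motif and 32.3% of those without were lower, with medians of -0.11 and -0.03. A motif lay in 27.0% of the lower members, 20% of the higher and 26.3% of those not called. Of the 8 members with the 8-base form, 3 were lower (ZNF764, ZNF747_2 and ZNF3) and 5 not called, against 53.3% lower of 289 other genes. A match is only a match of letters in an annotated window, and whether these cells use that 3′ UTR was not tested.

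Other features of the members tracked the fold change weakly. Over 263 coding members the Spearman correlation of the fold change with the number of fingers was 0.13, and with the GC content of the coding sequence -0.11, against -0.24 in 8735 other genes. Members had a lower GC content of the coding sequence (median 44.5%) than the other genes (51.2%). These are correlations across genes of the same 6 libraries, which are not independent replicates.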

How the data were processed

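The values deposited by the authors are FPKM per gene for 6 libraries of total RNA from Hep3B cells, made on genome build hg19 per the submitters' processing notes; neither the aligner and counting program nor the annotation and strand setting are stated in those sources. Groups and replicate numbers come from the sample titles. The members, gene lists, motifs and rule for named genes were chosen with earlier results of these data known. Named genes were SMARCA4, the 10 highest and 10 lowest called members whose groups did not overlap, the 5 most abundant, the 3 closest to 0, the 3 on each side of the level limit, 20 with a described role and the KAP1 genes given.

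Genes with a mean of at least 1 FPKM (11123) were fitted on log2(FPKM + 1) with limma 3.58.1 in R 4.3.3 (trend, two-sided), with Benjamini-Hochberg adjustment over all of them and a threshold of 0.05. The script was tested on simulated data. Where 1 symbol had several entries, that with the highest mean was used. Whole reads could be recovered from the FPKM steps for 99.996% of the genes above 0, at a relative tolerance of 1e-08, and the members held 94 reads or more in every library. Without molecular identifiers, PCR copies cannot be set apart, and read numbers cover counting error only.

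The reported fit holds no replicate term. Same-numbered libraries deviated together across groups (correlations 0.215, 0.181 and 0.162), so a fit with the replicate block, which takes the numbers as pairs, was run as an alternative. It called 2710 of all genes higher and 4050 lower, against 2494 and 3733 in the reported fit. Other alternatives were pseudocounts of 0.1 and 5, other filters, median-ratio, quantile and upper-quartile scaling, voom on the recovered reads, other level limits, a looser KRAB pattern, summed entries of 1 symbol, and leaving out each library.

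Domains were searched in coding sequences of GENCODE 29 translated by script, in place of the RefSeq proteins first planned, which were not used here. KRAB was called at 14 or more matches among 23 scored places of a 31-residue window. Positions and exon overlaps also come from GENCODE 29, by gene ID.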

Additional observations from a re-analysis of the deposited data

How the results depend on the processing

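The median fold change of the members was 0.03 as reported and 0.074 under median-ratio, 0.066 under quantile and 0.087 under upper-quartile scaling, 0.11 with voom on the recovered reads, and 0.0025 over members of at least 5 FPKM. Leaving out 1 library gave 0.0058 to 0.036, with the lowest value without si-Cont replicate 2. Relative to genes of like level the median was 0.06, with 0.077 and 0.036 at pseudocounts of 0.1 and 5, 0.078 with voom and 0.049 over members of at least 1 FPKM, and 0.051 to 0.071 when 1 library was left out.

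Members without KRAB were lower in 18 cases under median-ratio scaling and in 17 under upper-quartile scaling and voom, against 29 as reported, and higher in 18 to 28 when 1 library was left out, against 30. Lower calls among all genes tested were 3324 under median-ratio scaling, 3137 under upper-quartile scaling and 3191 with voom, against 3733 as reported. At 5 FPKM or more, 37 of 103 members were higher and 31 lower, 18 and 16 with KRAB and 18 and 15 without. Of all genes tested 22.4% were higher and 33.6% lower. The KAP1 genes called higher were 2 under quantile normalization, 1 with the replicate block, 1 with voom and 0 to 1 when 1 library was left out, the 1 without si-Cont replicate 2. The replicate block gave 85 higher and 65 lower members.

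Of 85 named genes tested, none reversed its sign past the threshold in 1272 comparisons, 73 of which lost a call and 22 gained one, in 15 and 5 genes. Most members lay below 1.25-fold on the log2(FPKM + 1) scale. With 3 libraries a group, the spread between libraries and the scaling limit which small changes are called.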
